A study of Homo sapiens with 12 samples.

Results

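The comparison described here set U937 cells carrying PR2VR, taken to be the protease-resistant form of PML-RARA that the series is named for, against U937 cells carrying PRWT, the wild-type form. Its members are the 8 arrays titled GFP-PR2VR or GFP-PRWT, chosen by title, out of 12 arrays in all. The 4 PR2VR arrays came from cells sorted for GFP 6 h (2 arrays) or 9 h (2 arrays) after electroporation, and the 4 PRWT arrays from cells sorted at the same hours. Electroporation is the method of the treatment protocol, whereas the titles say post infection for the fusion arrays and post transfection for the GFP arrays. The other 4 arrays, from cells given GFP alone at these hours, entered the fit as a shared measure of spread and are given beside the comparison. All 12 samples are the human line U937, which comes from a histiocytic lymphoma and grows as monocyte-like cells, so every value is of 1 cell line under transient expression of a GFP-tagged protein from a plasmid. The labels name the PR2VR plasmid only by that code, and their field for the transfected plasmid calls both fusions wild type. The form was therefore taken from the code in the titles and the text on the series design. The titles themselves do not call PR2VR protease-resistant. The labels do not say whether equally numbered arrays came from 1 transfection or whether numbers 1 and 2 are separate cultures, and any p-value here reflects the spread among these arrays alone, which may be technical.

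PML-RARA joins PML, which builds nuclear bodies, to the retinoic acid receptor RARA. It arises in acute promyelocytic leukemia, where it binds retinoid target genes and recruits corepressors. Neutrophil elastase (ELANE) and related serine proteases are stored in the azurophil granules of promyelocytes, and elastase is known to cleave PML-RARA. A form that resists the protease therefore asks what the uncleaved fusion does to the transcriptome, compared with the fusion that can be cut. An RNA array measures neither the protein nor its cleavage.

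Signals are the MAS5 values that the authors deposited, already scaled to 1 trimmed mean of about 1500 on every array. Differences below are PR2VR minus PRWT on the log2(signal + 62.5) scale, with the 20th percentile of all signals, 62.5, as the offset. Genes at low signal are therefore understated. A set is the PR2VR and PRWT arrays (and the GFP array) of 1 hour and number, and there are 4 sets. Where 4 signals of a construct are listed, they are in the order 6 h number 1, 6 h number 2, 9 h number 1 and 9 h number 2. SE is the standard error of limma's fit that takes the set as a block (the blocked fit), unless stated otherwise. Of 19775 genes with a probe set of their own, the 13959 with a mean signal of about 168.9 or more were tested.

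The arrays were uneven in ways that touch the comparison. The first principal component (32.8% of the variance) set the 3 arrays of 9 h number 2 apart. They scored 59.8 (PR2VR), 67.8 (PRWT) and 77.7 (GFP), and all other arrays scored below 0. Their median signals were 388.5, 387.8 and 436, against 238.6 to 292.1 on the other arrays. On the second component (15.8%) number 1 of PR2VR at 6 h stood apart at 65.2. It also had the weakest mean correlation with the other arrays, at 0.901, next to 0.904 for GFP at 9 h number 2. The 2 PR2VR arrays of 6 h differed from each other by more than 1 log2 unit in 31.9% of genes, against 20.8% for the 2 PRWT arrays of 6 h. At 9 h these shares were 22.8% for PR2VR and 26.8% for PRWT. The ratio of 3' to 5' signal of actin, a measure of RNA integrity and labelling, was 17.3, 56.9, 58.2 and 9.96 on the PR2VR arrays and 12.5, 27.5, 33.6 and 7.79 on the PRWT arrays. It was higher in PR2VR in 4 of 4 sets. The same ratio of GAPDH was 3.99, 3.82, 12.9 and 2.38 on the PR2VR arrays and 4.04, 8.28, 8.14 and 2.21 on the PRWT arrays, with the order split between sets. U937 markers bore out the label in part. Lysozyme (LYZ) read 4344 to 13833.4 on the PR2VR arrays and 3294.3 to 21335.7 on the PRWT arrays, and CD4, which monocytes also carry, read 1254.7 to 3329.4 in PR2VR and 1197.5 to 3101.3 in PRWT. SPI1, the myeloid factor PU.1, read 17.2 to 173.5 in PR2VR and 62 to 536.1 in PRWT and did not reach the filter, while CD33 and CD68 had no probe set of their own here.

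The transfected transcript was present on all 8 fusion arrays, and its difference between the forms did not pass a test. The RARA probe set with the highest signal (RARA is the retinoid-binding partner of the fusion) read 36892.4, 9281.2, 29626.4 and 41097.2 on the PR2VR arrays and 58985, 11970.8, 32912.3 and 54610.5 on the PRWT arrays. The groups overlapped, but PR2VR was the lower array in 4 of 4 sets, by 0.68, 0.36, 0.15 and 0.41 log2 units. The mean difference in RARA was -0.40 with an SE of 0.11 over the 4 sets and of 0.33 in the blocked fit (limma, unadjusted p = 0.25), and an exact two-sided sign-flip permutation test gave p = 0.125, the smallest that 4 sets allow. A second RARA probe set that read 3117.4 to 5934.1 in PR2VR and 5166.4 to 6792.6 in PRWT, against 181.9 to 671.1 with GFP alone, was also lower in PR2VR in 4 of 4 sets (mean -0.42). Another, which did not follow the transfection at 887.5 to 1318.6 in PR2VR, 1131.5 to 1626.3 in PRWT and 1213.2 to 1761.4 in GFP, differed by -0.26 between the forms. A further tested probe set that did not follow the transfection either, at 68 to 1356.8 in PR2VR, 25.3 to 1541.4 in PRWT and 27.5 to 1508.2 in GFP, differed by 0.74 and was higher in PR2VR in 3 of 4 sets. The PML probe set with the highest signal differed by 0.22 with an SE of 0.24 over sets. Another PML probe set, at 1601.2 to 9894.8 in PR2VR and 3368.1 to 5895.6 in PRWT against 168 to 518.4 in GFP, differed by -0.44 with an SE of 0.45. When 1 array was left out, without or with the block, RARA lay between -0.97 and 0.17. Both ends came from the fit without the block and the omission of a 6 h PRWT array, which leaves its PR2VR partner unpaired.

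No gene passed the test between the 2 forms. With limma and Benjamini-Hochberg adjustment, 0 of 13959 genes (0%) had an adjusted p under 0.05 averaged over both hours, at 6 h alone, at 9 h alone, or in the test of whether the difference depended on the hour, and this held in the fits without and with the block. An unadjusted p under 0.05 was reached by 216 genes (1.55%) without the block and by 957 (6.86%) with it, where 698 would be reached with no difference at all. At 6 h alone that count was 301 (2.16%) without and 1185 (8.49%) with the block. At 9 h alone it was 103 (0.738%) without and 367 (2.63%) with it, and for the dependence on the hour 138 (0.989%) and 533 (3.82%). The smallest adjusted p of the averaged comparison was 1.0 without the block and 0.72 with it. The smallest adjusted p with the block was 0.13 at 6 h, 1.0 at 9 h and 0.76 for the dependence on the hour.

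The count of 0 does not show that the forms acted alike, and the intervals say how far the arrays could tell. The median gene had a difference of 0.23 in size with an SE of 0.38 without and 0.28 with the block. For 63.2% of genes the 95% interval of the blocked fit lay wholly within 1 log2 unit of 0, so that a 2-fold difference was outside it, and without the block this held for 42.1%. Differences over 1 log2 unit in size were measured for 168 genes (1.20%). Most genes lay between -0.64 and 0.55, which are the 5th and 95th percentiles. Of all genes, 1054 (7.55%) were higher in PR2VR in 4 of 4 sets and 968 (6.93%) were lower in 4 of 4 sets. The 4 PR2VR arrays lay wholly above the 4 PRWT arrays for 70 genes (0.501%) and wholly below them for 74 (0.530%). The spread of differences over genes varied between sets, with an SD of 0.82 in 6 h number 1, 0.78 in 6 h number 2, 0.69 in 9 h number 1 and 0.54 in 9 h number 2.

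The 20 genes with the smallest unadjusted p that kept 1 direction in 4 of 4 sets, 10 each way, head the averaged comparison under that rule. They are described as values, since each had an adjusted p of 0.72 with the block and 1.0 without it in limma. The 10 higher in PR2VR were GSDMB, FOSB, RAD52, PRDM2, LPAR2, RAB11FIP1, MBLAC2, PELI2, MED23 and ATOSA. The 10 lower were MIR142, METRN, ELOC, TUBB3, ENY2, SRP14, ND6, MT1G, MICOS10 and CNPY2. The selection fixed their direction, so it is no sign of stability.

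**Figure D1:**
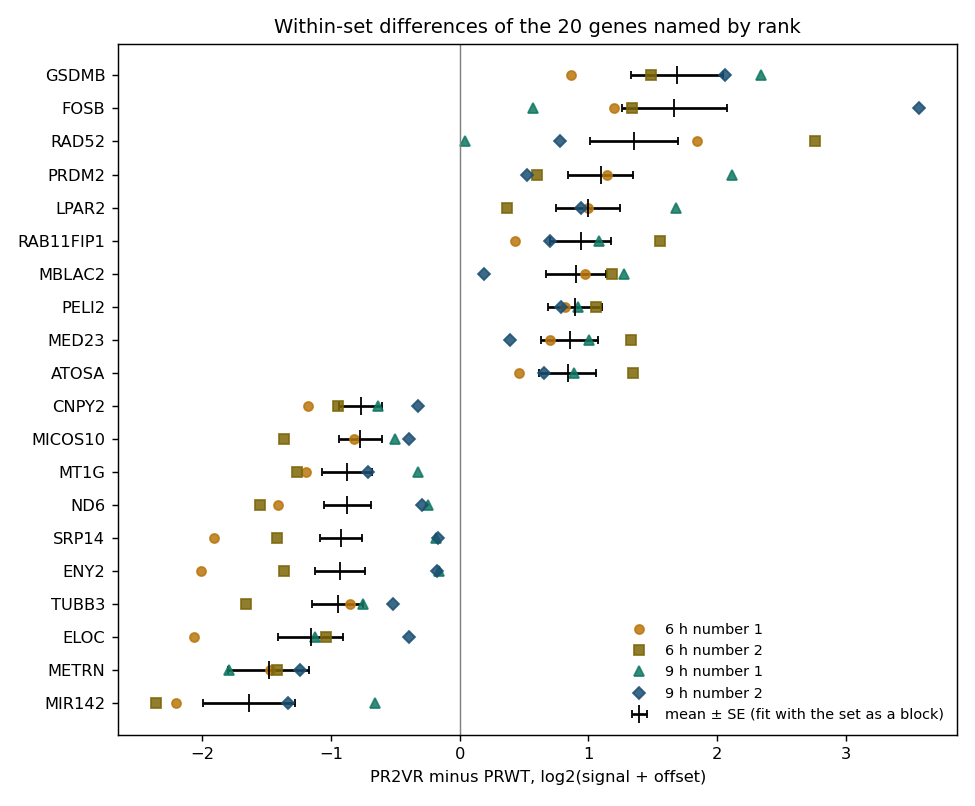
The difference PR2VR minus PRWT on the log2 scale (x axis) in each of the 4 sets, for the 20 genes named by rank (rows). Each symbol is 1 set of arrays and the black line is the mean with its SE from the blocked fit. PELI2 and METRN have their 4 sets close together, while FOSB has 1 set at 3.57 and SRP14, ENY2 and ND6 have both 9 h sets near 0.

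GSDMB, a member of the pore-forming gasdermin family, had the largest difference among genes higher in PR2VR. It read 218.9, 551.5, 346.1 and 473.6 on the PR2VR arrays and 91.8, 156.6, 18.2 and 65.7 on the PRWT arrays. Every PR2VR array lay above every PRWT array, and the difference was 1.69 ± 0.36 (SE). On the GFP arrays GSDMB read 180.7, 419.2, 341.1 and 350.2, of which 3 lay within the span of PR2VR and 1 below it, and all 4 lay above every PRWT array. The PRWT signals lie near the offset of 62.5, and 1 of 3 GSDMB probe sets passed the filter.

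FOSB, an AP-1 subunit made within minutes of a stimulus, read 37608.9, 6123.1, 2447 and 1470.3 on the PR2VR arrays and 16346.9, 2389, 1627.7 and 66.4 on the PRWT arrays. The groups overlapped widely because FOSB varied more with the hour and number than with the form, and the difference was 1.67 ± 0.41. It was 0.74 in the fit without the block when number 2 of PRWT at 9 h, the array at 66.4, was left out. RAD52, which acts in homologous recombination, read 891.2, 739, 412.7 and 760.4 on the PR2VR arrays and 203.4, 55.9, 398.3 and 417.5 on the PRWT arrays. The 2 PRWT arrays of 6 h were low. The sets differed by 1.84 and 2.76 at 6 h and by 0.04 and 0.78 at 9 h, for a mean of 1.36 ± 0.34.

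PELI2, a Pellino ubiquitin ligase of Toll-like and interleukin-1 receptor signalling, had the most even difference of these genes. It read 8793.5, 4442, 4456.4 and 2197.7 on the PR2VR arrays and 4949.5, 2102.9, 2326.8 and 1250.4 on the PRWT arrays. Each PR2VR array exceeded its PRWT partner by 0.82, 1.06, 0.92 and 0.78, although the groups overlapped, and the mean was 0.90 ± 0.21. With GFP alone PELI2 read 2526.2, 1039.9, 1684.4 and 550.1. PELI2 thus lay highest in PR2VR, then PRWT, then GFP in all 4 sets, and against GFP it rose by 1.76 ± 0.21 in PR2VR (limma with the block, adjusted p = 0.015), while the 0.87 ± 0.21 of PRWT did not pass (adjusted p = 0.34). In that fit 41 genes (0.294%) passed between PR2VR and GFP and 1 gene (0.00716%), RARA, between PRWT and GFP, and the difference between PR2VR and PRWT itself did not pass. These calls against GFP are fragile. For PELI2 the adjusted p was 0.71 without the block and 0.10 with the block but no variance trend, and with the block and 1 array left out it ran from 0.0026 to 0.16, past the threshold for 4 of 12 arrays.

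PRDM2, a PR-domain zinc finger protein that methylates histone H3, read 16893.3, 9828.8, 8702.8 and 7062.7 on the PR2VR arrays and 7615.3, 6467.2, 1962.4 and 4885.4 on the PRWT arrays. Only the highest PRWT array, that of 6 h number 1, exceeded the lowest PR2VR array, and the difference was 1.10 ± 0.25. MED23, a subunit of the Mediator complex, read 3875.8, 4275.3, 3388.1 and 4297.8 on the PR2VR arrays and 2365.3, 1661, 1655.8 and 3272.4 on the PRWT arrays. The groups did not overlap and the difference was 0.86 ± 0.22, but 3 of the 5 MED23 probe sets were lower in PR2VR, so the probe sets disagree. MBLAC2, a metallo-beta-lactamase domain protein, did not overlap either, with 2364.9 to 3545.5 in PR2VR and 1334.9 to 2065.6 in PRWT, and differed by 0.91 ± 0.23. The lysophosphatidic acid receptor LPAR2 (1.00 ± 0.25), the Rab11 effector RAB11FIP1 (0.94 ± 0.24) and ATOSA (0.84 ± 0.22) overlapped between the groups. PRDM2, LPAR2, RAD52 and RAB11FIP1 each had 1 further probe set that pointed the other way.

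MIR142, the host transcript of a microRNA that blood cells make abundantly, had the largest difference among the 10 genes lower in PR2VR. The 2 mature arms it gives rise to are shown because a change in this gene would bear on them, with the seed (bases 2 to 8) in capitals, from RefSeq (GRCh38.p14, chromosome 17, minus strand, 58331245 to 58331267 for the 3p arm and 58331283 to 58331303 for the 5p arm). The seeds of the 2 arms differ. The arrays read the gene's longer transcript and not the mature arms.
hsa-miR-142-3p: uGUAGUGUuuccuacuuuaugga
hsa-miR-142-5p: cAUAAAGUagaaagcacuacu

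MIR142 read 63.6, 432.3, 500.9 and 209.2 on the PR2VR arrays and 518.3, 2475.5, 828.1 and 622 on the PRWT arrays. Every PR2VR array lay below every PRWT array, and the difference was -1.64 ± 0.36, with both MIR142 probe sets lower. On the GFP arrays MIR142 read 91.7, 348.8, 330.1 and 656.1, so 3 of 4 GFP arrays lay within the span of PR2VR. METRN, the secreted protein meteorin, read 124.5, 270.4, 77.3 and 311.4 on the PR2VR arrays and 458, 826.2, 422.7 and 823.3 on the PRWT arrays. It differed by -1.48, -1.42, -1.80 and -1.24 in the 4 sets (mean -1.48 ± 0.31), with no overlap and with both of its tested probe sets lower. Its GFP arrays read 359.6, 407.6, 645.9 and 832.3, above every PR2VR array.

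MICOS10 is a subunit of the complex that shapes the cristae of the inner mitochondrial membrane. It read 24700.8, 32000.1, 26873.8 and 35475.1 on the PR2VR arrays and 43716.7, 82796.1, 38096.9 and 46554.3 on the PRWT arrays. The groups did not overlap, both probe sets were lower in PR2VR and the difference was -0.77 ± 0.17. TUBB3, a beta-tubulin, read 5040.5, 3280.6, 4612.3 and 8701.5 on the PR2VR arrays and 9171.9, 10531.7, 7823.2 and 12470.4 on the PRWT arrays. The PR2VR array of 9 h number 2 was the only one above a PRWT array, and the difference was -0.95 ± 0.20, with both probe sets lower. Against GFP, TUBB3 fell by 1.20 in PR2VR (limma with the block, adjusted p = 0.041), but the adjusted p was 0.72 without the block and 0.0057 to 0.38 with 1 array left out. Its difference of -0.26 ± 0.20 in PRWT did not pass. The TUBB3 and METRN probe sets and that of the metallothionein MT1G (-0.87 ± 0.19) are of a type that can bind near-identical copies, so related tubulin and metallothionein genes may share their signal.

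SRP14, a subunit of the signal recognition particle that carries new secretory proteins to the endoplasmic reticulum, had the smallest unadjusted p of the averaged comparison. It read 8024.1, 30760.4, 18061.9 and 38438.1 on the PR2VR arrays and 30408.5, 82604.2, 20506.2 and 43263.1 on the PRWT arrays. The 6 h sets differed by -1.91 and -1.42 and the 9 h sets by -0.18 and -0.17, for a mean of -0.92 ± 0.16. ENY2, a subunit of the SAGA deubiquitinase module, had the same shape, at -2.01 and -1.37 in the 6 h sets and -0.16 and -0.18 in the 9 h sets, although 1 of its 3 probe sets was higher. So did ND6, a mitochondrially encoded subunit of respiratory complex I, at -1.41 and -1.55 against -0.24 and -0.29. ELOC, the elongin C adaptor of ubiquitin ligases (-1.16 ± 0.25), and CNPY2, a saposin-like protein of the endoplasmic reticulum (-0.77 ± 0.17), were lower in every probe set. Without number 1 of PR2VR at 6 h, and without the block, SRP14 stood at -0.44 and ENY2 at -0.44.

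**Figure D2:**
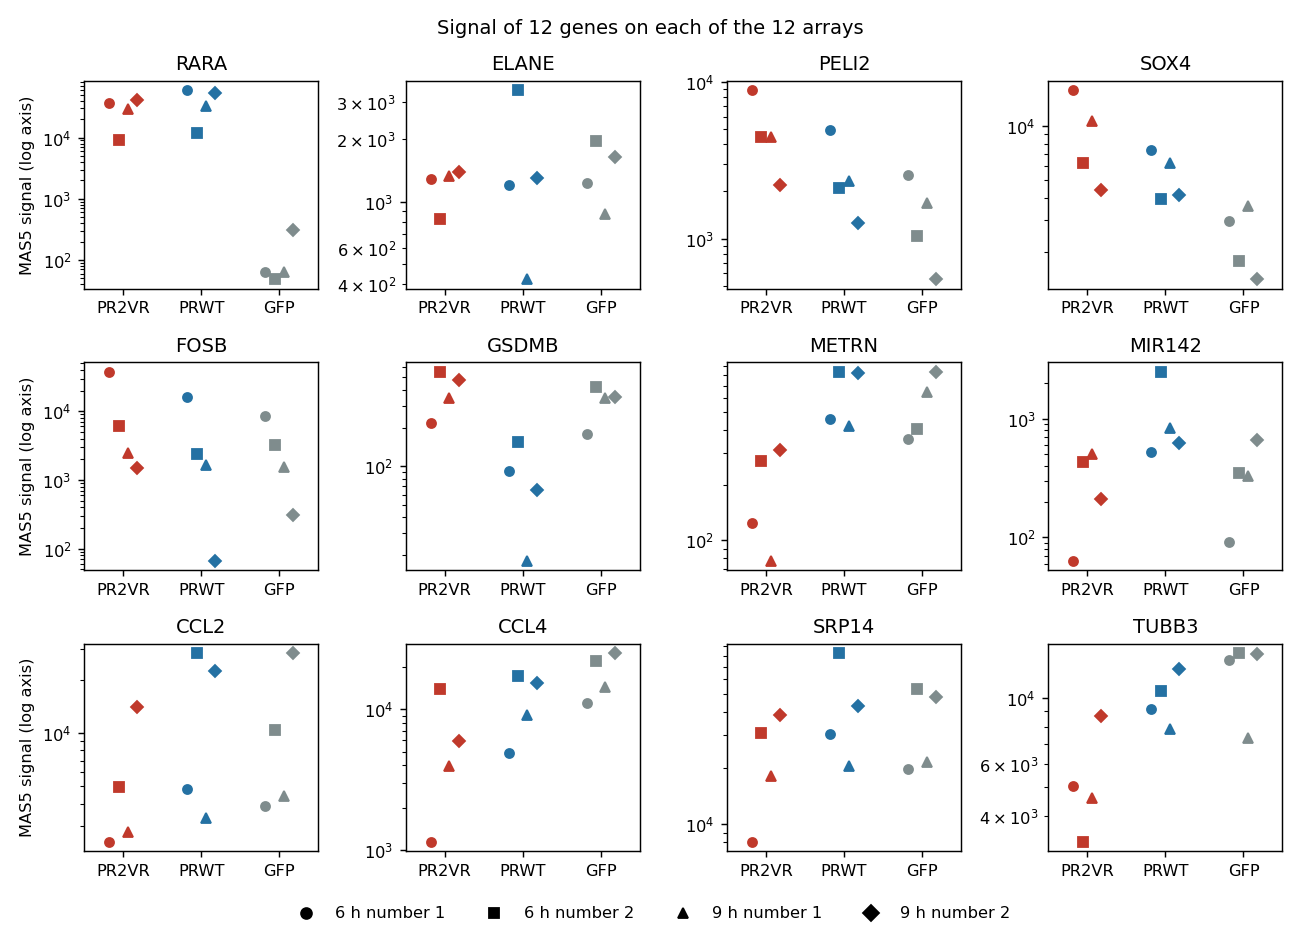
MAS5 signal on a log axis (y) of 12 genes on each of the 12 arrays, with PR2VR left, PRWT in the middle and GFP right (x axis). Each symbol is 1 array and its shape marks the hour and number. RARA reads 9281.2 or more on all 8 fusion arrays, METRN and MIR142 lie lower on every PR2VR array than on every PRWT array, and GSDMB lies higher.

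Promoter sequence was read for these 20 genes because the RARA part of the fusion binds DNA through the core letters AGGTCA of a retinoid response element, searched here on both strands. RefSeq windows of 300 bases, from 250 before to 50 after a gene's start (GRCh38.p14), were at hand for 12 of the 20 genes, 20 windows in all. The core letters stood in 4 of these 20 windows, in ATOSA, MED23, MICOS10 and PRDM2, and in 13.8% of all 35116 windows. A match is a description of letters and not a binding site. The cAMP response element, TGACGTCA, which reads the same on both strands and neither holds the core letters nor lies within them, stood in none of the 20 windows and in 1.85% of all windows. A window of 1 gene lower and 1 gene higher in PR2VR is shown with the core letters of either strand in capitals. MICOS10 lies at chr1:19596729-19597028 (plus strand) and holds both orientations, and the most upstream of the 3 PRDM2 windows lies at chr1:13699938-13700237 (plus strand).
MICOS10: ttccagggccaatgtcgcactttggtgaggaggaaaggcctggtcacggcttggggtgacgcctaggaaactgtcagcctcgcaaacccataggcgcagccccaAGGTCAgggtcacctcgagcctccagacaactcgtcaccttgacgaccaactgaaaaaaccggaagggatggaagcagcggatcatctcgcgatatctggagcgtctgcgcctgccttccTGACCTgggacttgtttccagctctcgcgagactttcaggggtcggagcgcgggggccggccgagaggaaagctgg
PRDM2: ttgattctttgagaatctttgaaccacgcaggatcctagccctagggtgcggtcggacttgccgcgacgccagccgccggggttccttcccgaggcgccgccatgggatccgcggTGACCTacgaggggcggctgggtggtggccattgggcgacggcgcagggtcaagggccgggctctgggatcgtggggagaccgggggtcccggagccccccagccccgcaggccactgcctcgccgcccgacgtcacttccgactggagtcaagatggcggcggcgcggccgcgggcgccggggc

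Split by hour, the differences were larger at 6 h and none passed. At 6 h the genes with the smallest unadjusted p were RAD52 (2.30 ± 0.48), the RNA-binding ubiquitin ligase RC3H2 (1.32 ± 0.29) and the endoplasmic reticulum exit site protein SEC16A (1.13 ± 0.26) among those higher in PR2VR. GADD45GIP1, a mitochondrial ribosome protein (-2.53 ± 0.35), SRP14 (-1.67 ± 0.23) and ENY2 (-1.69 ± 0.27) were the 3 among those lower. GADD45GIP1 and SRP14 came nearest to passing of all genes in any of these comparisons, each with an adjusted p of 0.13 in limma with the block. GADD45GIP1 read 110.5 and 560.5 on the 6 h PR2VR arrays and 906.4 and 3671.7 on the 6 h PRWT arrays. At 9 h it read 644.9 and 2228.9 in PR2VR and 486.9 and 2457.1 in PRWT, and the forms no longer stood apart. A second GADD45GIP1 probe set was higher in PR2VR in the averaged comparison, so its probe sets disagree.

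At 9 h the genes with the smallest unadjusted p were FAM209B (1.91 ± 0.42), ACKR5 (2.18 ± 0.50) and GSDMB (2.20 ± 0.50) among those higher and the folate receptor FOLR1 (-2.69 ± 0.62), BAALC (-2.04 ± 0.53) and ADAM11 (-1.98 ± 0.53) among those lower, all with an adjusted p of 1.0 in limma with the block. FOLR1 read 4291.8 and 2431.2 on the 9 h PR2VR arrays and 16422.8 and 27207.6 on the 9 h PRWT arrays. On the GFP arrays of 9 h it read 9523.3 and 3351.9, between them or within the span of the PR2VR arrays, and its averaged difference of -1.78 was the largest in size of all 13959 genes. ACKR5 had low signals throughout, at 562.1 and 647.1 in PR2VR and 73.8 and 95 in PRWT at 9 h.

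A difference that depended on the hour was measured most clearly, by unadjusted p, for RAB11B, RRS1 and GADD45GIP1 in the one direction and ARHGAP5-AS1, BAALC and FOXN4 in the other. RAB11B, a GTPase of recycling endosomes, read 408.3 and 271.1 in PR2VR and 1295.7 and 1301.4 in PRWT at 6 h, and 740.8 and 1747.4 in PR2VR and 235.4 and 1151.9 in PRWT at 9 h. The form with the higher signal was PRWT at 6 h and PR2VR at 9 h in both numbers, and the difference between hours was 2.78 ± 0.51. RRS1, a ribosome assembly factor, had the same turn, with differences of -1.02 and -1.76 at 6 h and 0.65 and 0.74 at 9 h. BAALC turned the other way, by -3.31 ± 0.76, on signals that reached 487 at most in PR2VR and 433.3 in PRWT. The adjusted p was 0.76 for RAB11B, RRS1 and GADD45GIP1 and 1.0 for the other 3 (limma with the block).

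Genes were also read in lists by role, and list medians with an array left out are from the fit without the block. For each list the counts above and below 0 and the median are given beside all genes tested, of which 6804 (48.7%) lay above 0 and 7155 (51.3%) below, with a median of -0.01. No member of any of the 34 lists passed. Over all single-array omissions, without and with the block, the median turned in sign for 26 of the 34 lists and kept it for 8, which were the chemokines, the NF-kB list, retinoic acid induced genes, endoplasmic reticulum folding genes, proteasome subunits, MAP kinase phosphatases with Sprouty inhibitors, FOXO-responsive genes and ARID5 factors with histone demethylases. In the blocked fit 3.22% of all genes were higher and 3.63% lower with an unadjusted p under 0.05, called nominal below. The counts of members read against these shares. Nominal members are given for the blocked fit only, which is the more permissive of the 2 fits. An unadjusted p under 0.05 was reached by 6.86% of all genes in it, against 1.55% without the block (limma). The median SE was 0.28 with and 0.38 without the block. How many list members would be nominal without the block is not given.

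The list named granule serine proteases comes first, since it holds elastase, the enzyme known to cleave PML-RARA. Its tested members also include AZU1, CTSC, GZMA and CFD. Whether PR2VR resists any member other than elastase is not given in the labels, so the list is not a list of enzymes that cut the fusion. Of 7 tested members (11 listed), 0 lay above and 7 below 0, with a median of -0.41. The set medians were 0.03, -1.38, -0.15 and -0.27, so 1 set carried most of it. Without number 2 of PRWT at 6 h the median was 0.076, but that fit keeps its PR2VR partner unpaired. Over the 10 members on the array, the summed signal at 6 h was higher in number 2 than in number 1 in every construct. It was 109186.3 against 63308 in PR2VR, 192379.9 against 69426.4 in PRWT and 152799.5 against 69879.9 in GFP. ELANE itself, neutrophil elastase, read 1283.8, 820.4, 1331.6 and 1381.4 on the PR2VR arrays and 1198.3, 3409.8, 423 and 1290.1 on the PRWT arrays. The PR2VR arrays lay inside the wider span of PRWT, and the difference was -0.07 ± 0.34. Proteinase 3 (PRTN3), its neighbour in the granule, read 354.3, 197.5, 238.3 and 607.6 in PR2VR and 350.6, 612.9, 374.5 and 947.8 in PRWT, a difference of -0.62 ± 0.34 with the first set at 0.01. Cathepsin G (CTSG) was by far the strongest of the signals, at 29858, 83429.5, 16938.6 and 43816.6 on the PR2VR arrays and 39353.3, 136651.5, 18736.8 and 51625.5 on the PRWT arrays. It was lower in PR2VR in 4 of 4 sets, by 0.40, 0.71, 0.15 and 0.24, while the groups overlapped (mean -0.37 ± 0.15, unadjusted p = 0.033 in limma with the block, adjusted p = 0.72). Signals of different probe sets cannot be compared as levels, so the order of CTSG over ELANE is not an order of transcripts. The transcripts of elastase, proteinase 3 and cathepsin G were thus measured above the filter in both forms. Of 7 tested serine protease inhibitors 5 lay above and 2 below 0 (median 0.03), and the serpin SERPINE2 did not overlap between the groups at -0.55 ± 0.23. Of 9 other granule proteins 3 lay above and 6 below 0, and RNASE2, an eosinophil-type ribonuclease, differed by -0.57 ± 0.25.

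The retinoid machinery held both directions. Of 14 receptors and cofactors 6 lay above and 8 below 0 (median -0.04), and 3 were nominally higher and 0 lower. SIN3A, the scaffold of a histone deacetylase corepressor, read 12876.3, 3404.8, 6302.8 and 3304.2 on the PR2VR arrays and 6253.7, 1903.6, 1786.6 and 2523.3 on the PRWT arrays. It was higher in PR2VR in 4 of 4 sets with overlapping groups, and its difference was 1.00 ± 0.27, with all 3 tested probe sets higher. TBL1X, a subunit of the NCOR complex, differed by 0.58 ± 0.20, with 3 of its 6 probe sets lower. The coactivator NCOA1 read 4459.3, 6070, 3938.9 and 3541.4 in PR2VR and 2227.6, 3172.3, 3210.6 and 3339.9 in PRWT, with no overlap. Its difference was 0.57 ± 0.21 and all 4 probe sets were higher. The receptors RXRA (-0.06), RXRB (-0.05), RARB (-0.05) and RARG (-0.10) lay near 0. Of 15 tested retinoic acid induced genes 5 lay above and 10 below 0 (median -0.14). CRABP2, which carries retinoic acid to its receptor, read 262.2, 463.2, 364 and 319.7 on the PR2VR arrays and 857.9, 785.1, 849.3 and 381.9 on the PRWT arrays, lower in 4 of 4 sets at -0.88 ± 0.29. PLAAT4 (-0.61 ± 0.23) and CD38 (-0.48 ± 0.22) were also lower in 4 of 4 sets, while DHRS3, which lowers retinoic acid by reducing retinal, stood at 0.62 ± 0.29. The 16 tested components of PML bodies split into 12 above and 4 below 0 with a median of 0.07 and no nominal member.

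Inflammatory chemokines had the lowest list median of all 34 lists, at -0.71. Of 13 tested members (19 listed) 1 lay above and 12 below 0, 6 were nominally lower and 0 higher, and 8 were lower in 4 of 4 sets. CCL4, a chemokine for monocytes and T cells, read 1146.6, 13835.4, 3949.3 and 5976 on the PR2VR arrays and 4893.8, 17118, 9130.6 and 15218.8 on the PRWT arrays. Each PR2VR array was below its PRWT partner, with overlap between the groups, and the difference was -1.22 ± 0.33. CCL2, the main monocyte attractant, read 2429.5, 4958.8, 2766.7 and 14081.9 in PR2VR and 4851.2, 28284.3, 3324.3 and 22443.4 in PRWT (-1.10 ± 0.25). Against GFP, CCL4 fell by 1.93 in PR2VR (limma with the block, adjusted p = 0.043), but the adjusted p was 1.0 without the block and 2.5e-04 to 0.36 with 1 array left out. Its difference of -0.72 ± 0.33 in PRWT did not pass. CXCL3 (-0.98 ± 0.34), CCL23 (-0.71 ± 0.27), CXCL10 (-0.62 ± 0.21) and CXCL11 (-0.59 ± 0.22) completed the 6, and CCL5 at 0.03 was the exception in sign. The list medians by set were -1.45, -0.31, -0.26 and -0.46. The lowest value is that of the set with number 1 of PR2VR at 6 h, which stood apart on the second principal component. Without that array the median was -0.27.

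Interferon response genes lay lower as well, with 5 of 32 above and 27 below 0 (median -0.28) and 6 nominally lower against 0 higher. ISG15, a ubiquitin-like protein that interferon induces, read 26141, 66119.3, 65135.2 and 70612.9 on the PR2VR arrays and 35392.7, 136632.3, 89742.7 and 88231.6 on the PRWT arrays. It was lower in 4 of 4 sets at -0.57 ± 0.17, as was the interferon regulator IRF7 at -0.53 ± 0.19. IFITM3 (-0.70 ± 0.26), IFI35 (-0.77 ± 0.30), IFIT2 (-0.53 ± 0.21) and IFIT1 (-0.39 ± 0.16) were the others, while MX2 (-0.03), OAS2 (-0.08) and HERC5 (0.03) lay near 0. The list median was -0.69 in 6 h number 1 and between -0.29 and -0.06 in the other sets. Leaving out number 1 of PR2VR at 6 h put it at 0.11 in the fit without the block, which keeps the PRWT partner of that array. The sets that do not hold that array were nevertheless each below 0. Of 22 NF-kB factors and inflammatory targets 6 lay above and 16 below 0 (median -0.24). Of the 5 factors, REL stood at 0.44 ± 0.19, RELA at 0.37 ± 0.18, NFKB1 at 0.15, NFKB2 at 0.14 and RELB at -0.05. The survival gene BCL2A1 (-1.15 ± 0.41) and the adhesion molecule ICAM1 (-0.49 ± 0.22) were the nominally lower members. BCL2A1 read 450, 4972.1, 2811.2 and 13484.9 in PR2VR and 4099.9, 13055.2, 2475.1 and 17378.8 in PRWT, so its difference came from the 6 h sets.

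Lists of abundant housekeeping transcripts also lay below 0. All 21 tested ribosomal protein genes were below 0, from -0.61 (RPS23) to -0.0012 (RPS19), with a median of -0.17, and 4 were nominally lower. Of 28 proteasome genes 2 lay above and 26 below 0 (median -0.24), and PSMA5, a subunit of the 20S core, differed by -0.49 ± 0.17. Both list medians were above 0 in 6 h number 1, at 0.30 and 0.12, and below 0 in the other 3 sets. Of 18 folding genes of the endoplasmic reticulum 4 lay above and 14 below 0 (median -0.19). The chaperone partner SDF2L1 read 568.9, 1079.4, 1166.4 and 1074.7 in PR2VR and 1060.9, 2730.5, 1601 and 3328.7 in PRWT, lower in 4 of 4 sets at -1.03 ± 0.27, and calreticulin (CALR) was even over sets at -0.66, -0.55, -0.49 and -0.41 (mean -0.52 ± 0.20). The actin 3' to 5' ratio was higher in PR2VR in all 4 sets, also in 6 h number 1, where the ribosomal and proteasome medians lay above 0. The part of that ratio in these lists was not tested.

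The highest list medians were those of chromatin and FOXO genes. Of 19 ARID5 factors and histone demethylases 16 lay above and 3 below 0 (median 0.30, the highest of all lists), 4 were nominally higher and 0 lower, and 7 were higher in 4 of 4 sets. The set medians were 0.41, 0.32, 0.10 and 0.085. Without number 1 of PR2VR at 6 h the median was 0.062, but that fit keeps its PRWT partner unpaired. The H3K9 demethylase KDM3A read 18959, 10353.1, 8957.2 and 6716.1 on the PR2VR arrays and 9347, 6096.8, 5604.3 and 6277.6 on the PRWT arrays (0.64 ± 0.21). KDM7A read 4094.8, 2633, 2582.5 and 2306.3 in PR2VR and 3061.3, 1346.3, 714.8 and 1725.7 in PRWT (0.88 ± 0.31). Both were higher in 4 of 4 sets with overlapping groups, as was KDM6B, an H3K27 demethylase, at 0.61 ± 0.26. Of 17 FOXO-responsive genes 13 lay above and 4 below 0 (median 0.26). The repressor BCL6 stood at 0.87 ± 0.26 with 1 set below 0, and TSC22D3, the glucocorticoid-induced leucine zipper, was higher in 4 of 4 sets at 0.42 ± 0.17. The FOXO list median was -0.22 in 6 h number 1 and 0.56 in 6 h number 2, so the 2 sets of that hour disagreed.

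Stress and early response lists had smaller medians. Of 22 immediate early genes 15 lay above and 7 below 0 (median 0.14), but the set medians were 0.34 and 0.33 at 6 h and -0.05 and -0.0021 at 9 h. Leaving out the second 9 h array of PRWT put the median at -0.06. JUN (0.58 ± 0.25) and JUND (0.50 ± 0.23), like FOSB, lay above 0 in 4 of 4 sets, and NR4A1 stood at -0.78 ± 0.47. The JUN probe sets disagreed, 2 higher and 2 lower. Of 24 amino acid and ATF4 stress genes 19 lay above and 5 below 0, with a median of only 0.09, and CEBPG, a partner of ATF4, differed by 0.52 ± 0.17. Of 14 MAP kinase phosphatases and Sprouty inhibitors 10 lay above 0 (median 0.17) and DUSP1 stood at 0.54 ± 0.23.

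**Figure D3:**
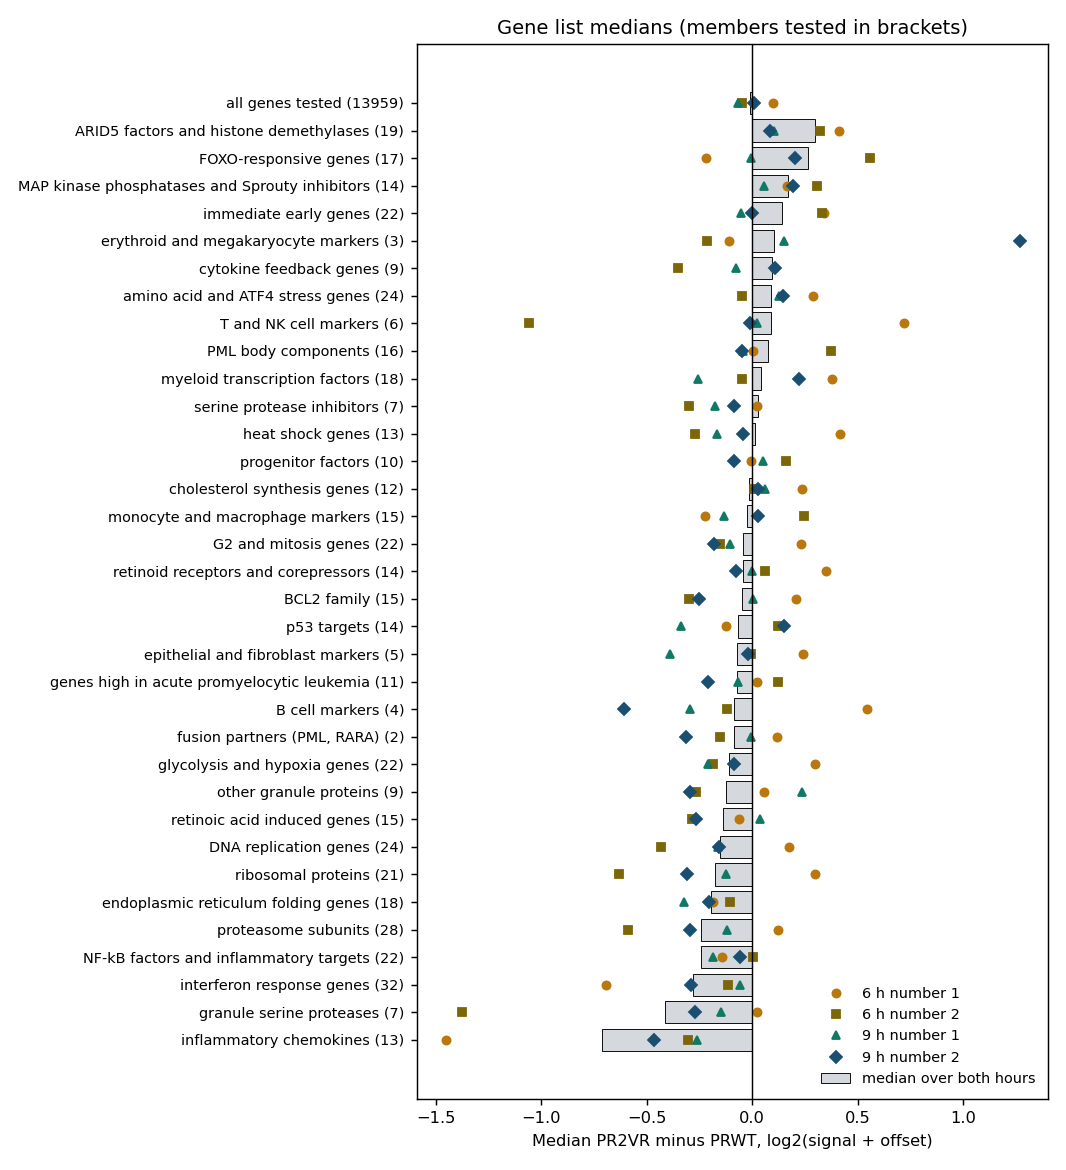
Median difference PR2VR minus PRWT on the log2 scale (x axis) of each gene list (rows, with the number of tested members in brackets), where the bar is the median over both hours and the symbols are the medians within each of the 4 sets. The chemokine list lies below 0 in every set with 6 h number 1 at -1.45, and the list of ARID5 factors and histone demethylases lies above 0 in every set.

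The list medians of myeloid identity genes lay near 0. Of 18 myeloid transcription factors 10 lay above and 8 below 0 (median 0.04), of 10 progenitor factors 5 and 5 (median 0.0015), and of 15 monocyte and macrophage markers 7 and 8 (median -0.02). SOX4, a progenitor factor, read 15759.1, 6282.2, 10712.5 and 4414.6 on the PR2VR arrays and 7336.4, 3948.2, 6246.3 and 4161 on the PRWT arrays, higher in 4 of 4 sets at 0.65 ± 0.21 and in all 4 tested probe sets. HHEX (0.66 ± 0.23) and SATB1 (0.47 ± 0.19) were the other nominally higher progenitor factors, and LMO2 (-0.62 ± 0.26) was nominally lower. Among monocyte genes 4 were nominally lower and 0 higher. CLEC7A, the beta-glucan receptor Dectin-1, read 41.1, 417.7, 55.3 and 757 in PR2VR and 519.3, 699.4, 481.1 and 742 in PRWT, so 3 of the 4 PR2VR arrays lay below every PRWT array and that of 9 h number 2 lay above them all (-1.33 ± 0.46). The galectin LGALS3 (-0.94 ± 0.37) and the ficolin FCN1 (-0.79 ± 0.31) also had 1 set above 0. Of 11 genes known to be high in acute promyelocytic leukemia 4 lay above and 7 below 0 (median -0.07).

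Proliferation and metabolism differed little in the median. Of 24 DNA replication genes 8 lay above and 16 below 0 (median -0.15), and thymidylate synthase (TYMS) read 25726.8, 30889.4, 64625.3 and 54575.6 in PR2VR and 62717.6, 50201.4, 75926.2 and 64029.2 in PRWT, lower in 4 of 4 sets at -0.61 ± 0.16. The medians were -0.04 for 22 genes of G2 and mitosis, -0.01 for 12 cholesterol synthesis genes, -0.11 for 22 glycolysis and hypoxia genes, -0.07 for 14 p53 targets, -0.05 for 15 BCL2 family genes, 0.09 for 9 cytokine feedback genes and 0.02 for 13 heat shock genes. INSIG1, the sterol sensor partner, stood above 0 in 4 of 4 sets at 0.69 ± 0.22, and the chaperone DNAJA1 below 0 in 4 of 4 sets at -0.71 ± 0.22.

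Summed signals of markers of other cell types overlapped between the forms. Of 13 T and NK cell markers on the array 6 passed the filter, with a summed signal over all 13 of 2955.1 to 13002.8 in PR2VR and 5269.5 to 15640.2 in PRWT. For B cells 4 of 7 passed, with sums of 5290.8 to 7268.6 in PR2VR and 4453.9 to 11802.3 in PRWT, and CD79A, part of the B cell receptor, differed by -1.21 ± 0.42 on signals of 63 to 1624.3 in PR2VR and 1058.7 to 1766.9 in PRWT. Of 9 erythroid and megakaryocyte markers 3 passed (sums of 2712 to 7856.2 in PR2VR and 2358.3 to 18771.9 in PRWT). Of 11 epithelial and fibroblast markers 5 passed (2020.9 to 3749.7 in PR2VR and 2809.1 to 3798 in PRWT). The list medians lay between -0.09 and 0.10.

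The forms can also be set side by side on the genes called against GFP for the mean of both forms. Against GFP, with the block, 44 genes (0.315%) passed for the mean of both forms, 18 higher and 26 lower, and without the block 1 gene did (0.00716%), RARA. The 44 was not stable. With the block it was 1 without a variance trend and 1 without the 3 arrays of 9 h number 2, and with 1 array left out it ran from 1 to 360, at 22 or fewer for 10 of the 12 arrays. The comparisons of each form with GFP share their control arrays, so only the values are given. Of the 43 genes other than RARA, 32 lay further from GFP in PR2VR and 11 in PRWT, and the median gene stood 1.40 from GFP in PR2VR and 1.17 in PRWT. Taken in the direction away from GFP, the difference between the forms had a median of 0.28 and ran from -0.43 to 0.90. With 1 array left out, without or with the block, this median ran from 0.054 to 0.45. The count of 32 ran from 25 to 37. The 0.054 came without number 1 of PR2VR at 6 h and the 0.45 without number 1 of PRWT at 6 h. The ends of both ranges were reached in the fit without the block, which leaves the partner of the omitted array unpaired. By set the medians were 0.25, 0.46, 0.13 and 0.14, all further in PR2VR. Of these genes 15 lay further in PR2VR in 4 of 4 sets and 1, CDKN1A, further in PRWT. The 32 of 43 is 74.4%, against 58.8% of all genes and 71.0% of the 1172 genes (8.40%) that reached an unadjusted p under 0.05 for the mean of both forms. The 15 of 43 is 34.9%, against 9.96% of all genes and 20.1% of the 1172. No test was made of these shares, which rest on the same arrays.

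Among these 43 genes the differences between the forms themselves were nominal for 10, each further in PR2VR, and none passed after adjustment. Over all genes 957 (6.86%) were nominal in either direction. The 43 were picked from the same arrays by a mean that includes PR2VR. Against GFP, 41 genes passed for PR2VR alone and 1 for PRWT alone, with the block. The shared direction of the 10 is therefore no independent evidence. On the side above GFP the nominal genes were PELI2, EVI2B (0.67 ± 0.20), TRIB1 (0.66 ± 0.20), SOX4 and TSC22D3. TRIB1, a scaffold that marks C/EBP factors for degradation, read 26056.5, 13589.7, 9577 and 2783 in PR2VR, 11485.2, 5834, 8731.6 and 2526.3 in PRWT and 7534.9, 2968.1, 3615.8 and 1697.5 in GFP, with the forms apart at 6 h and nearly level at 9 h. EVI2B, a myeloid membrane protein, was even over sets at 0.70, 0.79, 0.57 and 0.61. On the side below GFP they were the amino acid oxidase IL4I1 (-0.78 ± 0.26), APOL2 (-0.66 ± 0.21), the zinc finger protein ZBTB32 (-0.65 ± 0.24), the tryptophan-degrading IDO1 (-0.57 ± 0.25) and the membrane protein MS4A4A (-0.44 ± 0.20). IL4I1 read 362.6, 837.6, 2246.8 and 1780.1 in PR2VR, 514.7, 2407.2, 2440.4 and 3870 in PRWT and 1853.6, 4710.3, 5310 and 8838 in GFP, in that order in every set. Of the genes not nominal between the forms, the water and glycerol channel AQP9 stood at -2.29 in PR2VR and -1.67 in PRWT. Between the forms AQP9 differed by 1.15 and 0.15 at 6 h and by -2.39 and -1.40 at 9 h, so the hours pointed opposite ways. ARID5B, a DNA-binding partner of a histone demethylase, stood at 1.99 in PR2VR and 1.67 in PRWT, the Krüppel-like factor KLF6 at 1.67 in PR2VR and 1.46 in PRWT, and the insulin receptor substrate IRS2 at 1.51 in PR2VR and 1.24 in PRWT. KLF6 lay further from GFP in PR2VR in 2 of 4 sets, and ARID5B and IRS2 in 3 of 4. The cell cycle inhibitor CDKN1A stood at -1.15 in PR2VR and -1.28 in PRWT. RARA signal was lower in PR2VR in the same 4 sets.

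**Figure D4:**
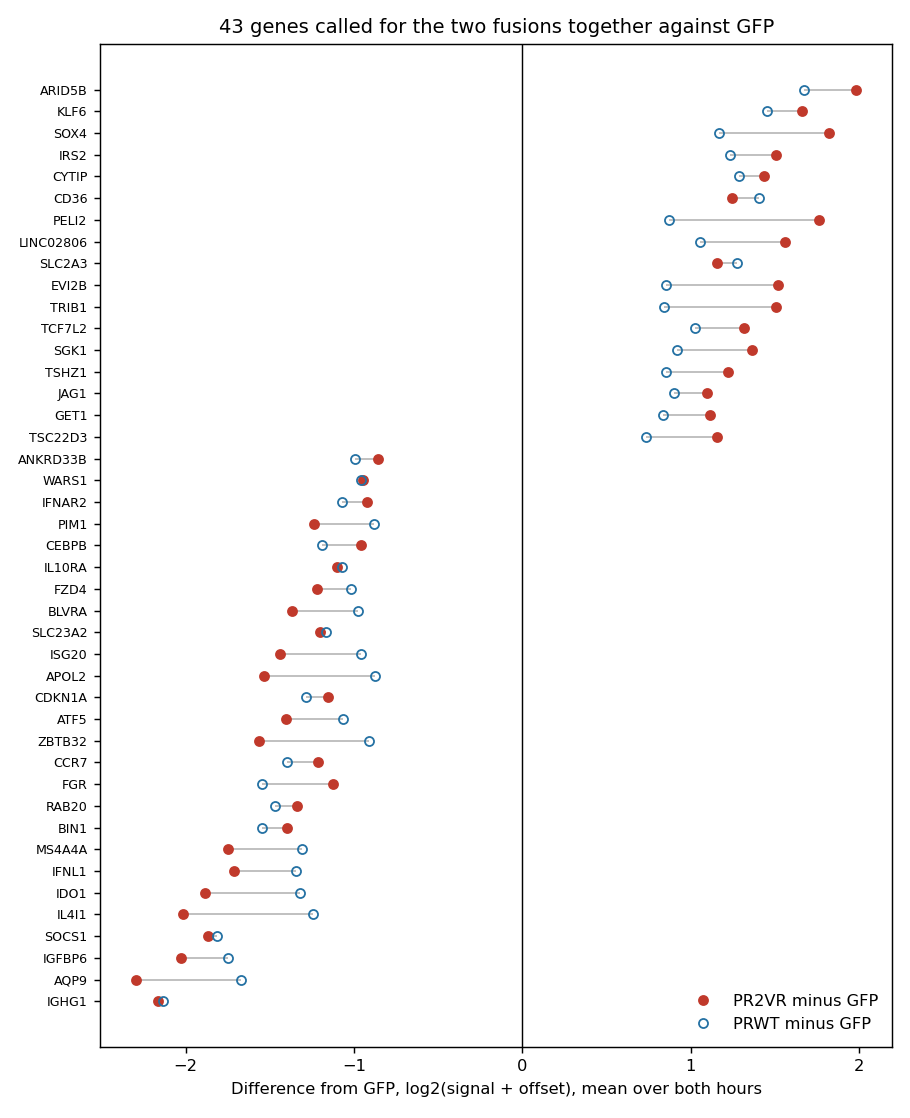
Difference from GFP on the log2 scale, averaged over both hours (x axis), of the 43 genes other than RARA that passed for the mean of both fusions in the blocked fit (rows). Filled red circles are PR2VR and open blue circles PRWT, and the grey line joins them. PR2VR lies further from 0 for 32 genes, with PELI2, SOX4, EVI2B, TRIB1 and IL4I1 among the widest gaps.

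The count of 0 changed only when a 6 h array of PR2VR was left out. Without number 1 of PR2VR at 6 h, 18 genes passed in the blocked fit of the averaged comparison, all of them lower, and 0 without the block. Without number 2 the blocked fit gave 303 genes (276 lower, 27 higher) and the other fit 2. Leaving out any other single array, or the 3 arrays of 9 h number 2 together, gave 0. The 2 lists shared 1 gene, TUBB3, which is 5.56% of the 18 and 0.330% of the 303. TUBB3 stood at -1.13 ± 0.16 without number 1 (limma, adjusted p = 0.040) and at -0.76 ± 0.16 without number 2 (adjusted p = 0.036), with the block. The 2 genes that passed without the block were RAD23B, a DNA repair protein that also shuttles cargo to the proteasome, and the aminopeptidase LAP3, named here after their values were seen. RAD23B stood at -2.72 with the block when only number 1 of PR2VR remained at 6 h and at -0.50 when only number 2 did, and LAP3 at -2.17 and -0.42. At 6 h alone, 244 genes passed without number 1 and 561 without number 2, with 16 in common, of which 10 had 1 direction. SRP14 was among these 16, at -1.42 without number 1 (adjusted p = 0.018) and -1.92 without number 2 (adjusted p = 0.0011), both at 6 h and with the block. These calls each rest on 1 PR2VR array at 6 h, whose spread is assumed to be that of the other groups.

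**Figure D5:**
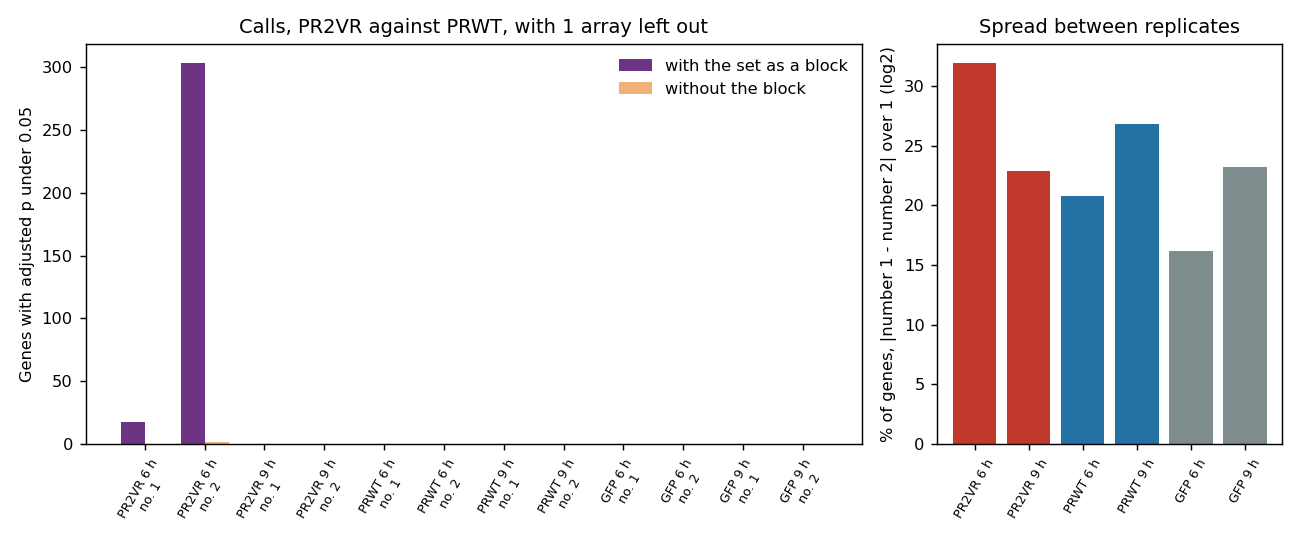
Left, the number of genes with an adjusted p under 0.05 between PR2VR and PRWT, averaged over both hours, when the array named on the x axis is left out, with the set as a block (purple) and without the block (orange), reaching 18 and 303 with the block for the 2 PR2VR arrays of 6 h and 0 for the other 10. Right, the share of genes that differ by more than 1 log2 unit between the 2 arrays of each group, highest for PR2VR at 6 h at 31.9%.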

How the data were processed

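The 12 U937 samples were hybridised to Affymetrix arrays, 1 each. The authors deposited linear MAS5 intensity values, per the submitters' processing notes (version and build not given in the sources used here), and since these are already scaled they were not normalized further. From these, log2(signal + 62.5) was computed for the probe set with the highest mean of each of 19775 genes (41091 of 54675 probe sets have 1 gene symbol), and 13959 genes with a mean log2 value of 7.85 (the 40th percentile over probe sets) or more were tested. limma 3.58.1 in R 4.3.3 fitted 1 mean per construct and hour on all 12 arrays with a variance trend (6 residual degrees of freedom), with Benjamini-Hochberg adjustment and a threshold of 0.05. This fit without the block was the main one. A further fit added the set as a block and left 4 residual degrees of freedom. The SEs and nominal counts given above come from the blocked fit unless stated otherwise. Deviations of equally numbered arrays from their group means correlated at 0.15 to 0.36 between constructs at 6 h and 0.56 to 0.63 at 9 h, so the numbers, which come from the titles, pair the arrays. Named genes were the 10 per direction with the smallest p of the blocked fit and 1 direction in all sets, 3 per direction at each hour and for the dependence on the hour, up to 3 per list, the 5 per direction that differed most from GFP, and PML, RARA, ELANE, PRTN3 and CTSG; other list members are given as examples. Members, lists and rules were chosen with earlier results of these data known. The number of arrays limits the precision. Single arrays, offsets, filter, normalization, probe sets and variance model were varied as alternatives. Detection calls and scanner files were not used here.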

Additional observations from a re-analysis of the deposited data

Results flagged for a closer look

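In 9 of 171 named genes and list medians examined, 1 set of arrays lay far from the other 3 in its difference between PR2VR and PRWT. For independent normal values of equal spread, chance gives about 1 in 20, here 9. Many of these items were picked on the same arrays, lists share genes with them, and the sets differ in spread. The expected 9 is therefore only a rough guide. In 6 h number 2 these were RNASE2 at -1.55 (other sets -0.32 to -0.20), PLAAT4 at -1.43 (-0.43 to -0.27), SOCS5 at 1.05 (-0.07 to 0.11), HSPE1 at -1.82 (-0.38 to -0.23), IGHG1 at -0.74 (0.14 to 0.32) and the median of the PML body list at 0.38 (-0.05 to 0.0033). In 6 h number 1 they were PSMC6 at -2.23 (-0.24 to -0.22) and the median of the chemokine list at -1.45 (-0.46 to -0.26). In 9 h number 2 it was GP1BA at 1.27 (-0.31 to -0.10).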

How the results depend on the processing

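With the replicate block, which the pairing of the arrays warrants, the count between PR2VR and PRWT stayed at 0 for the averaged comparison, for each hour and for the dependence on the hour. It also stayed at 0 with offsets of 16 and 200, without the filter, after quantile normalization, over all probe sets, without a variance trend, with array weights and on the 8 fusion arrays alone. The count for both fusions against GFP was 1 without and 44 with the replicate block, and with the block it was 38 at an offset of 16, 57 at an offset of 200, 40 without the filter, 53 after quantile normalization and 57 over all probe sets, where it was 4 without the block. With the block it was 1 without a variance trend and 1 without the 3 arrays of 9 h number 2. The blocked fits at other offsets, without the filter, after quantile normalization, over all probe sets and without a variance trend were chosen after seeing the data. When 1 array was left out, without or with the block, the count between PR2VR and PRWT ran from 0 to 303 averaged, 0 to 561 at 6 h and 0 to 164 for the dependence on the hour, was 0 at 9 h, and ran from 1 to 360 for both fusions against GFP. With the first 6 h array of PR2VR removed the blocked fit gave 18 genes averaged and 244 at 6 h. With the second removed it gave 303 and 561, against 2 and 35 without the block. The cause was not tested.

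Named genes with small differences turned in sign under some settings, none of them past the threshold in the full data. CD7 stood at -0.74 with an offset of 16 and IGHG1 at 0.0014 after quantile normalization. Without the 3 arrays of 9 h number 2, with and without the block, GP1BA stood at -0.21, SOCS1 at 0.29 and ELANE at 0.29. With 1 array left out, the log2 differences of genes that could turn were RARA -0.97 to 0.17, CTSG -0.82 to 0.076, CFD -0.96 to 0.086, PI3 -0.098 to 0.76, SRGN -0.12 to 0.75, SUMO3 -0.48 to 0.029, MORC3 -0.16 to 0.93, IGFBP2 -1.56 to 0.13, NKG7 -1.34 to 0.0035. Among cell type markers and feedback genes they were CD7 -0.23 to 0.99, PAX5 -0.53 to 0.18, CD79B -0.66 to 1.13, GP1BA -0.23 to 0.60, HBB -0.22 to 0.43, EPOR -0.71 to 0.51, KRT8 -0.28 to 0.53, COL1A2 -0.50 to 0.23, SOCS5 -0.10 to 0.70, SOCS2 -0.041 to 0.54. For the remaining genes they were SPRY2 -0.73 to 0.020, ARID5B -0.067 to 0.69, KLF6 -0.17 to 0.58, IGHG1 -0.55 to 0.49, IGFBP6 -0.61 to 0.050, SOCS1 -0.50 to 0.38, ELANE -0.48 to 0.35. The cause was not tested. The ends for RARA and CTSG came from the fit without the block, which does not pair the arrays, and both genes were lower in PR2VR in every set. Each group and hour holds 2 arrays, and signals near the offset limit what can be read for weak genes.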
